A study of Mus musculus with 32 samples.

Results

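The 10 genes described here are the core regulators of the epithelial-mesenchymal transition (EMT) and the cadherins it exchanges: the transcription factors Zeb1, Zeb2, Snai1, Snai2 and Twist1, the intermediate filament gene Vim, the cadherins Cdh1 and Cdh2, and the epithelial transcription factors Grhl2 and Ovol1. They were chosen by name, as rows of a table of read counts for 24454 gene IDs, and all 10 were found and tested. Values are CPM, the counts of a gene relative to all counts of its library, with library sizes scaled by the trimmed mean of M-values (TMM).

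In an EMT, epithelial cells lose their adherens junctions and gain a migratory, fibroblast-like state. The zinc finger proteins of the Snai and Zeb families and the basic helix-loop-helix protein Twist1 repress Cdh1, which encodes the junction protein E-cadherin, while Cdh2, encoding N-cadherin, and Vim, encoding vimentin, come on; the exchange of Cdh1 for Cdh2 is called the cadherin switch. Grhl2 and Ovol1 act against it, Grhl2 by activating junction genes and repressing Zeb1, and Ovol1 by repressing mesenchymal genes. Fibroblasts, endothelial cells and leukocytes express Vim and several of these factors without any EMT, so in captured tissue such cells can carry the same transcripts.

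Snai and Zeb proteins bind the E-box CAGGTG, which reads CACCTG on the other strand. RefSeq promoter windows (GRCm38.p6) were found for 4 of the 10 genes: Vim, Zeb2, Snai1 and Twist1. In the 250 bases before the start sites, Snai1 held 1 such E-box and the windows of the other 3 genes held none, though the Vim window lies inside the GENCODE gene, which starts upstream of the RefSeq start, and Zeb2 has several start sites; of 32851 mouse windows of this length, 17.2% held at least 1. The windows of Snai1 (chr2:167537945-167538194, + strand) and Twist1 (chr12:33957421-33957670, + strand) are shown because these factors had the sparsest counts and because they differ in this letter sequence. The E-box is in capitals and begins 126 bases before the Snai1 start.
Snai1: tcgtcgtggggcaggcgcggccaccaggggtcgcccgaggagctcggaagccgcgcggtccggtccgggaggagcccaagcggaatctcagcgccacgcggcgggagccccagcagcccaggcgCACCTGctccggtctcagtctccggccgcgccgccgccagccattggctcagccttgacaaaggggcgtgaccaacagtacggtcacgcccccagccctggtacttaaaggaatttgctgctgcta
Twist1: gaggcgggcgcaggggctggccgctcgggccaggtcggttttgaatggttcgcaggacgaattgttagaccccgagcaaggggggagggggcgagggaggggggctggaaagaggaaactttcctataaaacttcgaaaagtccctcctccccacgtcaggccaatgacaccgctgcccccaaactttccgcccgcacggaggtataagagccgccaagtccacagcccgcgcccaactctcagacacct

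Cdh1 lies at chr8:106603351-106670246 and Cdh2 at chr18:16588877-16809246. Zeb1 lies at chr18:5591860-5775467, Zeb2 at chr2:44983632-45117395, Snai1 at chr2:167538195-167542814, Snai2 at chr16:14705852-14709385 and Twist1 at chr12:33957671-33959829. Vim lies at chr2:13573927-13582826, Grhl2 at chr15:37233036-37363569 and Ovol1 at chr19:5549136-5560646 (GENCODE M21 on GRCm38, the assembly also called mm10). Exons of antisense genes overlap those of Zeb2 by 653 bases, of Ovol1 by 690 and 76 bases, of Zeb1 by 198 bases and of Grhl2 by 169 bases; since the counting is not stated to use strand, reads of these partners cannot be told apart.

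RNA came from 32 regions captured by laser from fixed sections of females with MMTV-PyMT, R26-CBW and K8-CreERT2 alleles, taken at the largest permitted tumour volume, in which polyoma middle T antigen under a mammary promoter drives tumours through graded stages. All groups carry these alleles and had the same tamoxifen injection (5 mg at 5 weeks of age), which labels keratin 8 cells, the luminal cells of the gland, with a heritable colour, so the normal gland is that of a tumour-bearing mouse. There were 3 libraries of normal gland (1 in a tumour core, normal 18, and 2 pools, normal 28 and 30), 5 of hyperplasia (3 in the core, 1 at the border, 1 outside the tumour), 8 of adenoma (3, 3 and 2), 9 of carcinoma (6 in the core, 3 at the border) and 7 of lung metastasis (3 in the lung centre, 4 at the lung border). The series gives n = 3 without saying of what, and the labels tie no region to an animal. With more regions than that in most groups, some may share an animal, and every p-value below, which treats regions as independent, is then too small.

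Library totals ran from 2688611 to 19585351 counts and detected genes from 10258 to 17667. In 3 libraries (hyperplasia 22, adenoma 51 and metastasis 42) fewer than 11000 genes had a count. The luminal markers (8 genes, led by Csn3, Krt8 and Krt18) summed to 2158 to 16645 CPM, and the 9 basal markers to 2.57 to 377 CPM, with counts for all 8 luminal genes in every stage. The 10 lung epithelial markers summed to 416 to 4607 CPM in the metastases against at most 62.6 CPM elsewhere, and Cdh1 is also expressed in lung epithelium. In such bulk samples, fewer cells of a type and less RNA per cell cannot be told apart.

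Cdh1 was the most abundant of the 10 genes per kilobase of exon, and its counts were present in all 32 libraries. The median over libraries was 36 CPM per kb for Cdh1, 5.56 for Vim, 2.03 for Grhl2, 0.298 for Cdh2, 0.297 for Snai2, 0.219 for Zeb2, 0.215 for Ovol1, 0.104 for Zeb1, 0.0946 for Snai1 and 0 for Twist1. Cdh1 stood above Vim in 30 of 32 libraries, Vim above Grhl2 in 26, and Grhl2 above Cdh2 in 25. Lower in the order some neighbours did not separate: Cdh2 was above Snai2 in 14 libraries and below it in 14, and Zeb1 was above Snai1 in 13 and below it in 13. Others did in part: Zeb2 was above Ovol1 in 21 and below it in 11, and Snai1 was above Twist1 in 17, below it in 3 and equal in 12. Cdh1 was the highest of the members in 29 libraries, Vim in 2 (normal 18 and carcinoma 55) and Snai2 in 1 (carcinoma 53). The coefficient of variation of CPM over the 32 libraries was 0.392 for Cdh1, 0.871 for Grhl2, 1.02 for Vim and 1.5 to 3.27 for the other 7.

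**Figure D1:**
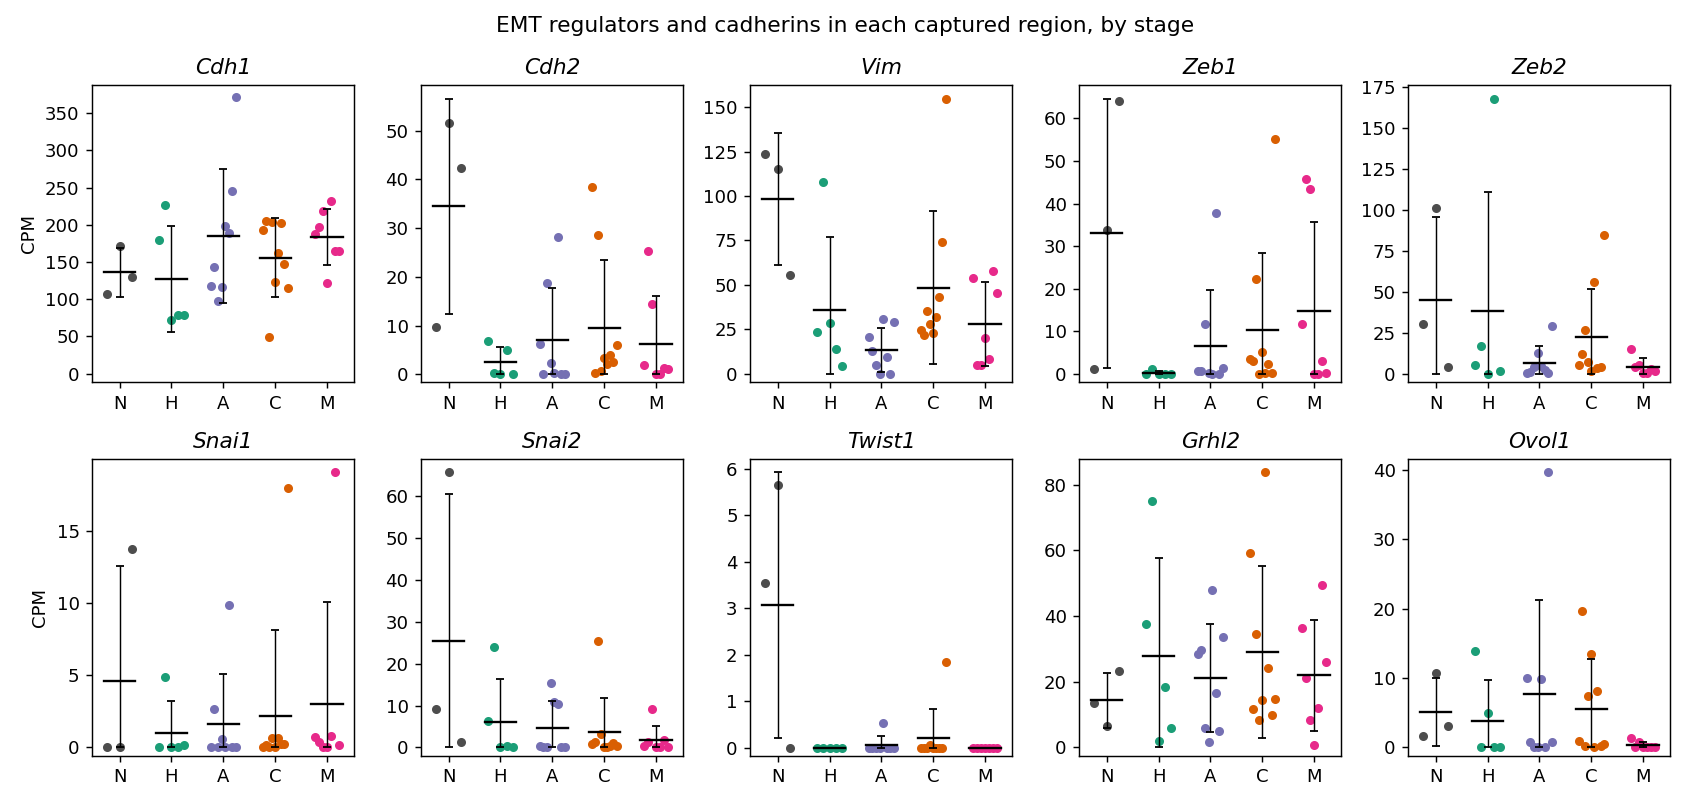
CPM of each of the 10 genes (vertical axes, linear, each with its own scale) in every library, by stage: N, normal gland (n = 3); H, hyperplasia (n = 5); A, adenoma (n = 8); C, carcinoma (n = 9); M, metastasis (n = 7). Points are libraries, wide bars the means and thin bars 1 SD, the lower arm stopped at 0; Cdh1 is high in every stage, while Zeb1, Snai1, Snai2, Twist1 and Ovol1 have medians over the 32 libraries between 0 and 1.07 CPM.

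The level of Cdh1 did not differ between stages beyond the spread of the regions. In normal gland it was 107, 172 and 130 CPM (normal 18, 28 and 30), and in hyperplasia 180, 226, 71.6, 78.7 and 79.1 CPM (hyperplasia 21, 44, 22, 33 and 46). Adenoma regions ranged from 97.8 to 372 CPM with a median of 166, carcinoma regions from 49.6 to 205 with a median of 162, and metastases from 121 to 232 with a median of 188. The ranges overlapped in every pair of stages. The log2 differences were -0.10 (SE 0.51) for hyperplasia against normal, 0.54 (SE 0.41) for adenoma against hyperplasia, -0.25 (SE 0.34) for carcinoma against adenoma and 0.24 (SE 0.35) for metastasis against carcinoma. The edgeR quasi-likelihood test across the 5 stages gave an adjusted p of 0.839 for Cdh1.

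Cdh2 had its highest mean in normal gland, at 9.66, 51.7 and 42.3 CPM (normal 18, 28 and 30). Hyperplasia held 6.85, 0.366, 0, 5.03 and 0.0823 CPM (hyperplasia 21, 44, 22, 33 and 46), all below the lowest normal library. The log2 difference was -3.80 (SE 2.02, edgeR adjusted p = 0.432), and over the alternative fits and left-out libraries the adjusted p ranged from 0.297 to 0.915. Among all 19907 genes tested, 5.12% had stage ranges that did not overlap in this pair, and Cdh2 was the 1 member of 10. Later stages reached back into the normal range: 18.8 and 28.2 CPM in adenoma 47 and 48, 38.5 and 28.5 CPM in carcinoma 06 and 53, and 25.3 and 14.4 CPM in metastasis 40 and 56, with stage medians of 1.22, 3.31 and 1.32 CPM.

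No library had more Cdh2 than Cdh1 transcript per kilobase of exon. The share of Cdh2 in the sum of both had a median of 1.02% over the 32 libraries and exceeded 10% in 4 of them. Those were normal 28 (14.5%), normal 30 (15.6%), carcinoma 06 (10.1%) and carcinoma 53 (24.6%). Carcinoma 53 also had the lowest Cdh1 level of all libraries, 49.6 CPM, with the next carcinoma region at 115 CPM. Both cadherins of carcinoma 53 lay below the 99% level of olfactory receptor genes, a comparison set out further below. In hyperplasia the share was at most 3.49%, in adenoma 9.83% and in metastasis 6.76%. Across libraries, Cdh1 and Cdh2 had a Spearman correlation of -0.24 (n = 32, levels as log2 of CPM plus 1). By Pearson it was -0.20, and -0.19 without the 2 libraries of most extreme Cdh1. Cdh2 had a correlation of -0.52 with the total count of the library and 0.53 with its number of detected genes (Spearman, n = 32), and the part of either in the Cdh2 share was not tested.

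**Figure D2:**
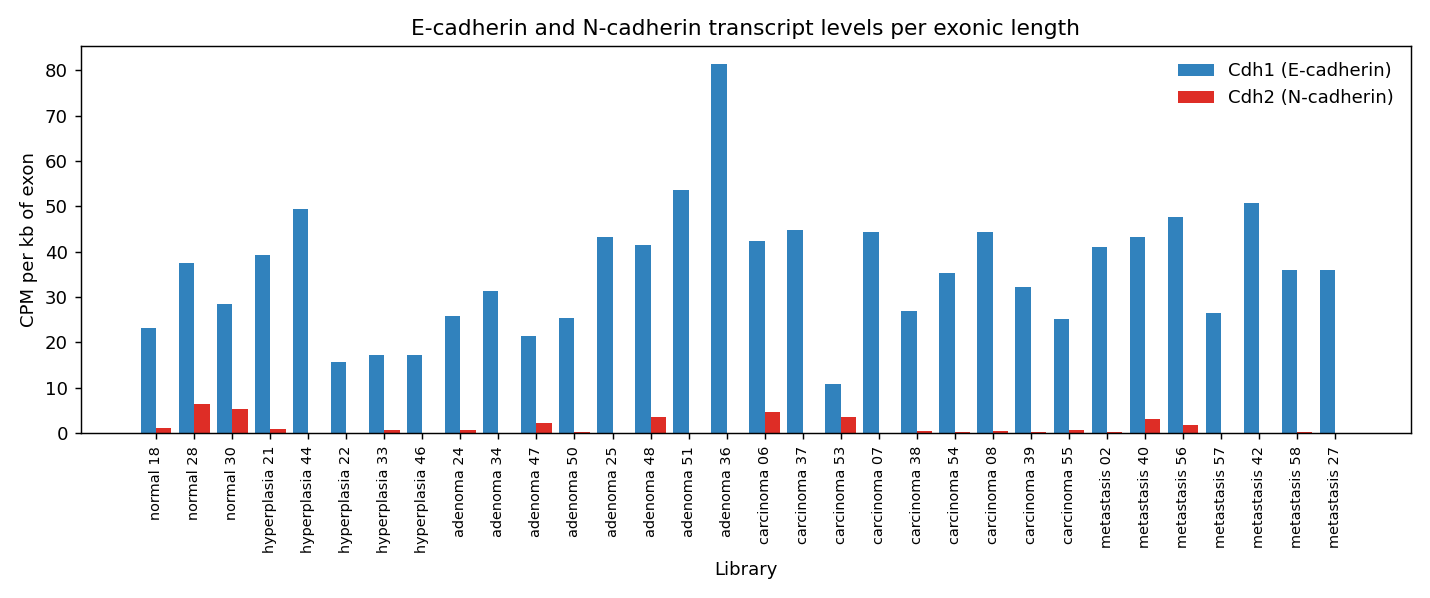
Cdh1 (blue) and Cdh2 (red) in CPM per kb of exon (vertical axis, from 0) in each of the 32 libraries, ordered by stage. Blue bars exceed red ones in every library, and the red bar is closest to the blue in carcinoma 53.

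Zeb1 was detected in 23 of 32 libraries and varied widely within every stage but hyperplasia. Normal gland held 1.04, 33.9 and 64.2 CPM (normal 18, 28 and 30), with the high values in both pools. Hyperplasia held 0 in 4 regions and 1.10 CPM, from 9 counts, in hyperplasia 44. The log2 difference was -7.16 (SE 2.49, edgeR adjusted p = 0.282), and -11.38 without hyperplasia 44, the 1 region with counts. By the DESeq2 Wald test the adjusted p was 0.0189, the one fit of any pair of groups that called a member. In this pair DESeq2 called 489 of the 19907 genes and edgeR called 0. Zeb1 then spread widely, from 0 through a median of 0.724 to 37.8 CPM in adenoma, from 0 through 2.93 to 55.3 CPM in carcinoma and from 0 through 2.95 to 45.7 CPM in metastasis. Adenoma against hyperplasia differed by 4.82 on the log2 scale (SE 2.13, edgeR adjusted p = 0.274), within ranges that overlapped, and by 3.16 to 9.05 with a library left out (adenoma 48 and hyperplasia 44).

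Zeb2 had counts in 31 libraries, and its level was set by a few regions in each stage. Normal gland held 30.4, 101 and 4.10 CPM (normal 18, 28 and 30), and hyperplasia 5.33, 17.0, 0, 168 and 1.48 CPM (hyperplasia 21, 44, 22, 33 and 46). A single region, hyperplasia 33, thus set most of the hyperplasia mean. Medians in adenoma, carcinoma and metastasis were 2.96, 7.36 and 3.15 CPM, with maxima of 29.0, 84.9 and 15.3 CPM. The log2 differences were -2.49 (SE 1.19, edgeR adjusted p = 0.318) for adenoma against hyperplasia, 1.72 (SE 1.07, edgeR adjusted p = 0.570) for carcinoma against adenoma and -2.37 (SE 1.15, edgeR adjusted p = 0.444) for metastasis against carcinoma. Without hyperplasia 33 the first of these was 0.16.

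Snai1 and Snai2, a pair of related repressors, were low, and their stage means came from a few regions each. Snai1 had 10 counts or more in 9 libraries, and its highest values were 19.0 CPM in metastasis 58, 17.9 in carcinoma 55, 13.7 in normal 30 and 9.84 in adenoma 48. The stage medians of Snai1 lay between 0 and 0.401 CPM. Snai2, which basal mammary cells also express, was highest in normal 28 at 65.6 CPM, followed by carcinoma 53 at 25.5 and hyperplasia 44 at 23.9 CPM. Its correlation with the summed basal markers was 0.53 (Spearman, n = 32). By Pearson it was 0.47, and 0.56 without the 2 libraries of most extreme basal sum. Snai2 averaged 25.3 ± 35.1 CPM (SD) over 3 normal libraries, 6.13 ± 10.3 over 5 hyperplasias, 4.6 ± 6.45 over 8 adenomas, 3.61 ± 8.27 over 9 carcinomas and 1.82 ± 3.29 over 7 metastases, with spreads larger than the means.

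Twist1 was counted in 5 of 32 libraries and was the 1 member of 10 called across the 5 stages (edgeR quasi-likelihood adjusted p = 0.0473), where 3.58% of all genes tested were called. The counts were 41 in normal 18 (3.54 CPM), 21 in normal 28 (5.65 CPM), 22 in carcinoma 55 (1.85 CPM), 9 in adenoma 25 (0.541 CPM) and 1 in carcinoma 07. Normal 30, all 5 hyperplasias and all 7 metastases held none. With groups at 0 set to a floor of 3 counts summed over their libraries, the Twist1 mean was at least 46.1-fold lower in hyperplasia and at least 68.7-fold lower in metastasis than in normal gland. These bounds cover the sampling of reads and not the spread of regions. Neither pair of stages passed on its own (edgeR adjusted p = 0.282 and 0.245). Twist1 and the summed fibroblast markers had a Spearman correlation of 0.46 (n = 32). By Pearson it was 0.52, and 0.26 without the 2 libraries of most extreme fibroblast sum. The call was lost when any 1 of 25 of the 32 libraries was left out and was kept without normal 30, adenoma 25, adenoma 50, carcinoma 37, carcinoma 39, carcinoma 53 or metastasis 40. In the 31 of these fits that still tested Twist1, its adjusted p ranged from 0.0399 to 0.0786, and without carcinoma 55 the gene no longer passed the filter on low counts.

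Vim had its highest mean in normal gland, at 124, 115 and 55.8 CPM (normal 18, 28 and 30). In hyperplasia it was 23.3, 108, 28.8, 13.8 and 4.36 CPM (hyperplasia 21, 44, 22, 33 and 46), of which only hyperplasia 44, the border region, reached the normal range. Adenoma had the lowest values, from 0 through a median of 10.8 to 31.0 CPM, with 2 regions at 0. Carcinoma ran from 21.5 through 31.7 to 155 CPM and metastasis from 4.61 through 19.9 to 57.9 CPM. The log2 difference was -1.46 (SE 1.12, edgeR adjusted p = 0.622) for hyperplasia against normal, 1.85 (SE 0.79, edgeR adjusted p = 0.275) for carcinoma against adenoma and -0.80 (SE 0.80, edgeR adjusted p = 0.836) for metastasis against carcinoma. None of these differences passed the test over all genes.

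The summed CPM of 12 fibroblast genes was high in several of the libraries with high Vim, but not in the metastases. It was 838 to 3505 CPM in normal gland, 140 to 974 in hyperplasia, 28.3 to 1358 in adenoma, 56.1 to 2717 in carcinoma and 55.7 to 229 in metastasis, and in hyperplasia and adenoma 11 of the 12 genes had counts (Dpt and Fbln1 were at 0), in the other stages all 12. Metastasis 58, 02 and 27 held 57.9, 53.9 and 45.6 CPM of Vim at fibroblast sums of 106, 103 and 55.7 CPM. Vim and the fibroblast sum had a Spearman correlation of 0.50 (Pearson 0.54, and 0.43 without the 2 libraries of most extreme sum, n = 32). Zeb2 and the fibroblast sum had 0.49 (Pearson 0.49, and 0.37 without the same 2 libraries, n = 32). For Zeb1 the correlation was 0.02 and for Cdh2 0.05. Carcinoma 55 held the carcinoma maximum of the fibroblast sum and also of Zeb1, Zeb2, Snai1, Twist1 and Vim, while normal 18, with the highest fibroblast sum of all, had 1.04 CPM of Zeb1 and no Snai1 count. The part of fibroblast RNA in these levels was not tested.

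**Figure D3:**
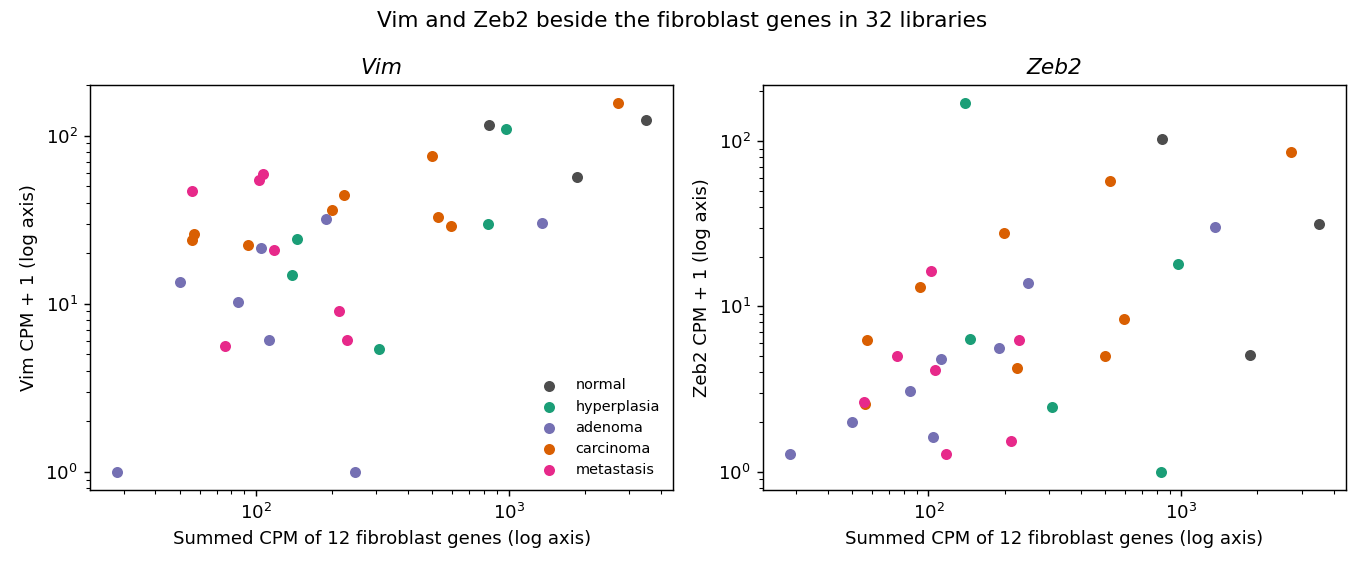
Vim (left) and Zeb2 (right), as CPM plus 1 on a log axis, against the summed CPM of 12 fibroblast genes on a log axis, for 32 libraries coloured by stage. The 4 highest Vim values lie at fibroblast sums of 838 CPM or more, and hyperplasia 33 stands apart with 168 CPM of Zeb2 at a sum of 140 CPM.

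The epithelial factor Grhl2 was counted in all 32 libraries and did not differ in mean between stages beyond the spread of the regions. Its mean and SD were 14.4 ± 8.40 CPM over 3 normal libraries, 27.7 ± 29.8 over 5 hyperplasias, 21.1 ± 16.5 over 8 adenomas, 29.0 ± 26.1 over 9 carcinomas and 22.0 ± 16.9 over 7 metastases. The edgeR adjusted p across the stages was 0.958. Ovol1 was sparse in the metastases, where 2 of 7 had counts, 1.32 CPM in metastasis 02 and 0.730 CPM in metastasis 56. It was sparse in other stages too, with counts in 2 of 5 hyperplasias and 5 of 8 adenomas. Normal gland held 1.64, 10.8 and 3.08 CPM (normal 18, 28 and 30), above all metastases, in a pair of stages where 2.85% of genes had ranges that did not overlap. Carcinoma had Ovol1 counts in all 9 regions, from 0.0589 through a median of 0.892 to 19.6 CPM. With 10 counts as the limit, 4 of the 9 carcinoma regions and 1 of the 7 metastases remained. The log2 difference of Ovol1 was -4.05 (SE 2.16, edgeR adjusted p = 0.539) for metastasis against normal and -4.17 (SE 1.94, edgeR adjusted p = 0.409) for metastasis against carcinoma.

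In no pair of neighbouring stages, nor in carcinoma or metastasis against normal gland, was any of the 10 members called by edgeR. The unadjusted p was under 0.05 for 2 members in hyperplasia against normal, 2 in adenoma against hyperplasia, 1 in carcinoma against adenoma, 3 in metastasis against carcinoma, 0 in carcinoma against normal and 2 in metastasis against normal. Over all genes that share was 12.4%, 14.8%, 12.6%, 10.9%, 8.17% and 9.8% in the same order, so most of these member counts lie near it. DESeq2 called Zeb1 in the first of these, as 1 of 489 genes, and no member in the others, and limma voom called none. Between stages, CPM ranges failed to overlap for 0 members in adenoma against hyperplasia (0.0703% of all genes), carcinoma against adenoma (0.0201%), metastasis against carcinoma (0.0904%) and carcinoma against normal (2.14%). Few other genes were called by edgeR: 0% of the 19907 tested in each of the first 3 pairs, 0.0151% in metastasis against carcinoma, 0.00502% in carcinoma against normal and 0.0251% in metastasis against normal. The median log2 difference of the 10 members was -1.75, 0.62, 0.45, -0.70, -1.03 and -2.14 in the same order, beside 0.00, 0.06, 0.02, -0.01, 0.10 and 0.10 for all genes. Where normal gland is the reference, the 3 comparisons share its libraries, and 9, 7 and 8 of the 10 members lay below it. Markers of other cell types lay below it in the same comparisons: 11, 12 and 12 of 12 fibroblast genes, 9, 10 and 9 of 10 macrophage genes and all 5 adipocyte genes tested. The adipocyte sum was 80.4 to 722 CPM in normal gland, at most 94.7 in hyperplasia, 12.7 in carcinoma and 0.802 in metastasis, and the macrophage sum 254 to 2623 CPM in normal gland against at most 701, 395 and 417. Their part in the members' levels was not tested.

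Within the primary tumour, core and border regions were compared in adenoma and in carcinoma. In carcinoma, Vim was lower in all 6 core regions, from 21.5 to 35.0 CPM with a median of 26.4, than in the 3 border regions at 43.3, 74.4 and 155 CPM (carcinoma 08, 39 and 55). The log2 difference was -1.73 (SE 1.03, edgeR adjusted p = 0.796), and it was -1.10 without carcinoma 55. Ranges that did not overlap in this pair were found for 1.23% of 22676 genes and for 1 of the 10 members. The fibroblast sum was 56.1 to 593 CPM in the core and 224 to 2717 CPM at the border, with carcinoma 08 and 39 (224 and 497 CPM) inside the core range and only carcinoma 55 above it. Cdh1 averaged 156 ± 60.9 CPM in the core (SD, n = 6) and 155 ± 44.6 CPM at the border (SD, n = 3).

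In adenoma, Ovol1 and Zeb1 separated core from border in opposite directions. Ovol1 was 10.1, 9.92 and 39.7 CPM in the core (adenoma 24, 25 and 51) and 0, 0 and 0.847 CPM at the border (adenoma 47, 48 and 36), a log2 difference of 6.03 (SE 3.18, edgeR adjusted p = 0.515). Zeb1 was 0.725, 0 and 0 CPM in the core and 11.7, 37.8 and 1.27 CPM at the border, a log2 difference of -5.98 (SE 2.66, edgeR adjusted p = 0.514). With a library left out, these differences ran from 5.12 (adenoma 51) to 10.62 (adenoma 36) for Ovol1 and from -10.41 (adenoma 24) to -4.59 (adenoma 48) for Zeb1. Ranges failed to overlap for 5.84% of genes in this pair and for these 2 of 10 members. Snai1 had no count in the core and 89 counts at the border, all in adenoma 48, so adenoma 47 and 36 were at 0 as the core was. Against a floor of 3 counts over the core, its mean was at least 34.1-fold lower there. That bound covers the sampling of reads and not the spread of regions. The log2 difference was -8.05 (SE 3.79, edgeR adjusted p = 0.514). Vim overlapped, at 20.4, 31.0 and 0 CPM in the core and 5.08, 9.18 and 29.3 CPM at the border. Fibroblast sums were 28.3 to 190 CPM in the core and 84.7 to 1358 CPM at the border.

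**Figure D4:**
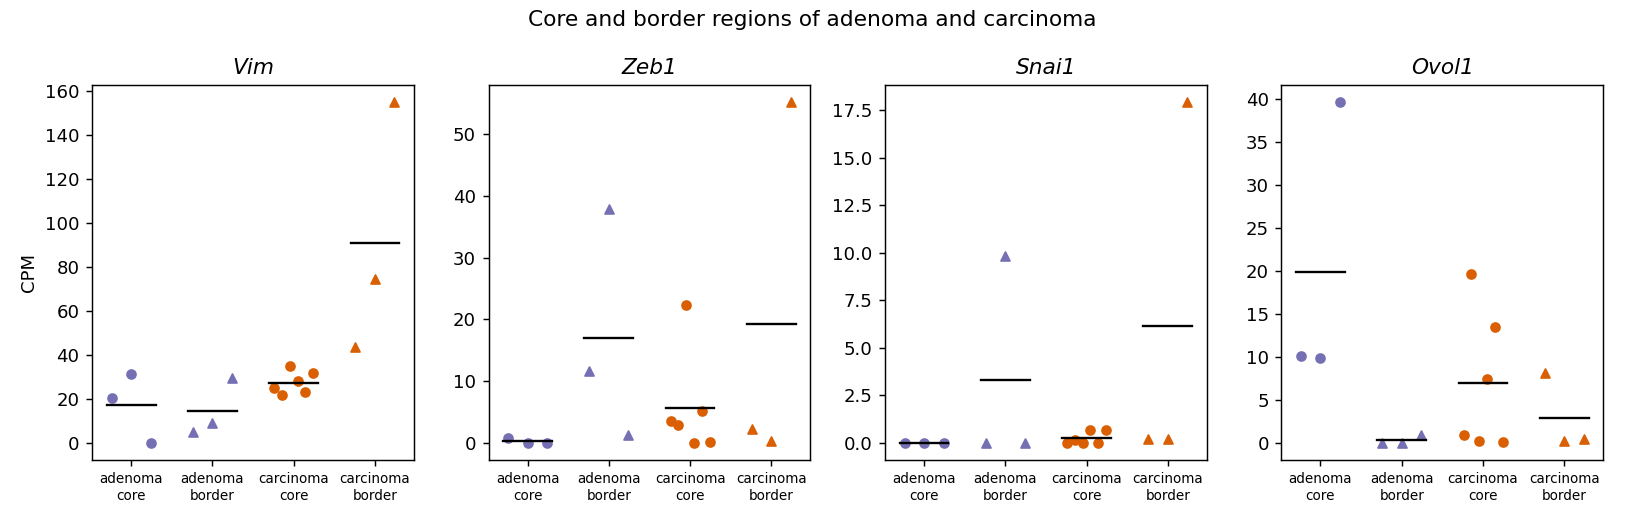
CPM (vertical axes, linear) of Vim, Zeb1, Snai1 and Ovol1 in core (circles) and border (triangles) regions of adenoma (n = 3 and 3) and carcinoma (n = 6 and 3); bars are means. Carcinoma border regions lie above all core regions in Vim, and adenoma core regions lie above all border regions in Ovol1.

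The difference between core and border was itself compared between carcinoma and adenoma. It differed by -1.97 (SE 1.63, edgeR adjusted p = 0.854) on the log2 scale for Vim, by 4.21 (SE 3.04, edgeR adjusted p = 0.787) for Zeb1 and by -4.79 (SE 3.50, edgeR adjusted p = 0.793) for Ovol1, and 0 of 10 members were called. At the lung border against the lung centre, Zeb1 was 45.7, 43.4, 0 and 2.95 CPM (metastasis 40, 56, 57 and 58) against 11.7, 0 and 0.223 CPM (metastasis 02, 42 and 27), with ranges that overlapped, as did those of the other 9 members, where 2.92% of genes did not overlap. Cdh1 averaged 175 ± 42.3 CPM at the lung border (SD, n = 4) and 195 ± 34.1 CPM in the lung centre (SD, n = 3). edgeR called 0% of 22676 genes, and so 0 members, in each of the 4 position comparisons. The unadjusted p was under 0.05 for 0 members in carcinoma, 2 in adenoma, 0 in the lung and 1 in the comparison between stages, where 5.63%, 9.45%, 8.71% and 8.77% of all genes were, and neither DESeq2 nor limma voom called a member.

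Regions differed in how many of the 5 transcription factors were counted in them. With 10 counts as the limit, 5 libraries had none of the factors, 4 had 1, 10 had 2, 8 had 3, 5 had 4 and 0 had all 5. The 5 libraries with none were hyperplasia 22, adenoma 24, adenoma 51, metastasis 42 and metastasis 57. Of these, hyperplasia 22, adenoma 51 and metastasis 42 had fewer than 11000 detected genes. Metastasis 57 had 12061 detected genes, but adenoma 24 had 16835. The part of detection in the number of factors was not tested. The 5 libraries with 4 factors were adenoma 48, carcinoma 55, metastasis 58, normal 18 and normal 28. Zeb1 and Cdh2 had the highest correlation between members, 0.69 (Spearman, n = 32). By Pearson it was 0.75, and 0.68 without the 2 libraries of most extreme Cdh2. Vim and Zeb2 had 0.46 and Vim and Grhl2 0.42, whereas Cdh1 and Vim had -0.06 and Cdh1 and Zeb1 0.01 (Spearman, n = 32). All these points share library depth and scaling, and they are given as descriptions.

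The genes whose pattern was most like that of a member were taken by Spearman correlation of log2 of CPM plus 1 over 32 libraries, among 7294 genes that averaged at least 20 CPM. For Vim they were Sparc (0.68), a matrix glycoprotein gene, 9530082P21Rik (0.68) and Aebp1 (0.66), and for Zeb2 they were the chemokine gene Cxcl16 (0.72), Ccdc80 (0.66) and Dsel (0.62). For Zeb1 they were Prkdc (0.66), which encodes the catalytic subunit of the DNA-dependent protein kinase, Nup98 (0.59) and C2cd3 (0.59), and for Cdh2 they were Prkdc (0.64), the phosphodiesterase gene Pde4d (0.63) and Herc2 (0.62). The 5 genes most like Zeb1 or Cdh2 spanned 90.8 to 1504 kb of genome, beside a median span of 23.9 kb over the genes compared; Zeb1 itself spans 184 kb and Cdh2 220 kb. For Cdh1 they were Napa (0.64), Thoc5 (0.62) and Sdhaf4 (0.62), and for Grhl2 they were Fiz1 (0.82), Rasef (0.68) and Shisa2 (0.68). Fiz1 kept its first place for Grhl2 by Pearson correlation and without the 3 libraries of fewest genes, but most lists changed with the measure: the alternatives shared 0 to 1 of the 3 genes for Cdh1, 1 for Zeb1, 0 to 2 for Cdh2 and for Vim, and 1 to 3 for Zeb2.

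Olfactory receptor genes, which mammary tissue is not known to use, gave a level for comparison; this set was taken after the values were seen. They summed to 59.4 to 7373 CPM per library over 1106 genes. Per kilobase of exon, Cdh1 stood above 99% of 1096 such genes in 28 of 32 libraries, Vim in 14, Grhl2 in 6, Snai1 in 3, Snai2 and Ovol1 in 2 each, Zeb2 in 1, and Zeb1, Cdh2 and Twist1 in 0. Cdh1 fell short of that 99% level in normal 28, hyperplasia 33, adenoma 47 and carcinoma 53. In carcinoma 53 the level was 20.2 CPM per kb, against 10.9 for Cdh1, 12.6 for Snai2 and 3.54 for Cdh2. The summed olfactory receptor level of carcinoma 53, 3107 CPM, was the highest in carcinoma. Against 90% of the olfactory receptor genes, Zeb1 stood above in 11 libraries and Cdh2 in 17. The summed olfactory receptor level and Cdh2 had a Spearman correlation of 0.44, and that level and Zeb1 0.26 (n = 32). What part of the Zeb1 and Cdh2 counts comes from the same source was not tested.

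**Figure D5:**
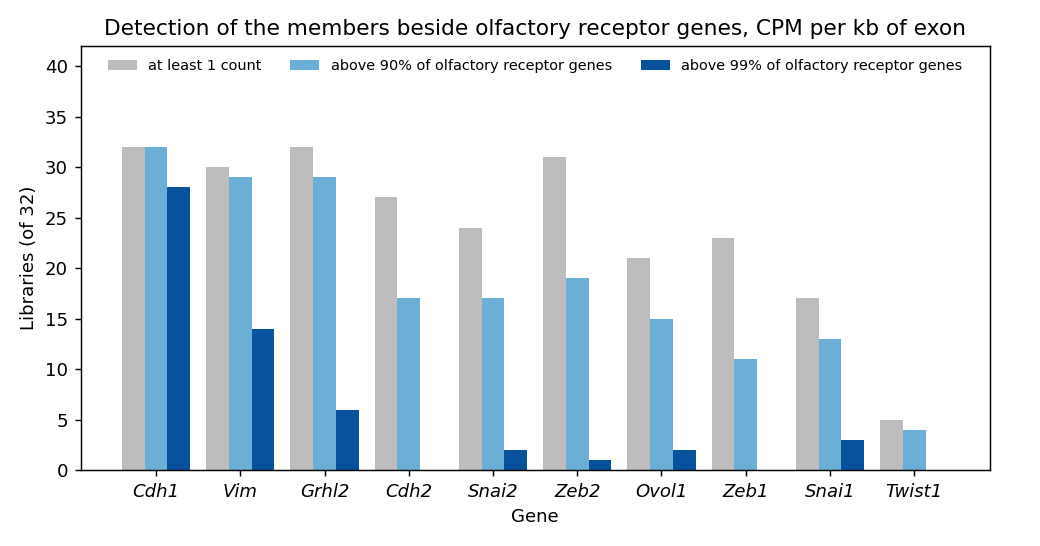
Number of libraries, of 32, in which each gene had at least 1 count (grey), exceeded 90% of olfactory receptor genes (light blue) and exceeded 99% of them (dark blue), compared in CPM per kb of exon; genes are in the order of their median level. Dark bars reach 28 for Cdh1 and 14 for Vim and are 0 for Cdh2, Zeb1 and Twist1.

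Of 16 further mesenchymal genes, led by Sparc, Itgb1 and Cd44, none of which is in the fibroblast list, 1 was called across the stages by edgeR (3.58% of all genes were), 6 by DESeq2 and 4 by limma voom (338 and 354 of all genes were). Between pairs of stages, edgeR called 0 of the 16. DESeq2 called 1 in hyperplasia against normal, 3 in adenoma against hyperplasia, 2 in carcinoma against adenoma and 1 in metastasis against normal. By limma voom, 4 were called in carcinoma and 2 in metastasis against normal. The counts of all genes that each tool called in these pairs are in the last section. The gene that edgeR called across the stages was Mmp14, which encodes a membrane-bound matrix protease (edgeR adjusted p = 0.0408). Mmp14 averaged 149 ± 93.4 CPM (SD) over the 3 normal libraries, 43.3 ± 72.0 over the 5 hyperplasias, 12.0 ± 10.54 over the 8 adenomas, 72.5 ± 37.5 over the 9 carcinomas and 65.0 ± 23.0 over the 7 metastases, lowest in adenoma as Vim was. Its adjusted p lay between 0.0100 and 0.0590 with 1 library left out and passed the threshold in 23 of these 32 fits; it was 0.0603 under TMMwsp scaling and 0.0606 when hyperplasia 22, adenoma 51 and metastasis 42 were left out. The list's summed level was 1162 to 2042 CPM in normal gland and had a Spearman correlation of 0.64 with Vim (n = 32). By Pearson it was 0.58, and 0.58 without the 2 libraries of most extreme summed level. The list's median log2 difference was -1.77 in hyperplasia, -1.15 in carcinoma and -1.89 in metastasis against normal gland, beside 0.00, 0.10 and 0.10 for all genes. In the same comparisons it was -2.11, -1.62 and -3.72 for the fibroblast list and -1.80, -1.77 and -2.41 for the macrophage list, and their part was not tested.

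Of 20 epithelial junction genes, 1 was called across the stages by edgeR: Tjp1, encoding the tight junction scaffold ZO-1 (edgeR adjusted p = 0.0408). Tjp1 averaged 194 ± 228 CPM in hyperplasia (SD, n = 5) against 36.5 to 53.99 CPM in the other stages. Its edgeR adjusted p was 0.496 without hyperplasia 22, 0.1001 without hyperplasia 46, 0.0514 without adenoma 36 and 0.0555 without carcinoma 37. The call was also lost under limma voom (adjusted p = 0.830), with detected genes as a covariate (0.246), without the 3 libraries of fewest genes (0.388) and on thinned counts (0.0563). It was kept in 5 of 9 such alternatives, among them DESeq2, and in 28 of the 32 fits with 1 library left out. DESeq2 also called Tjp1 in adenoma against hyperplasia. Epcam, Cldn3 and Ctnnb1 were the most abundant of this list. The list's summed level was 1303 to 1557 CPM in normal gland and 1501 to 3890 CPM in the 4 later stages, and 15, 15 and 16 of the 20 genes lay above normal in hyperplasia, carcinoma and metastasis, with 0 called by edgeR, DESeq2 or limma voom in each and 5, 5 and 3 at an unadjusted edgeR p under 0.05 (12.4%, 8.17% and 9.8% of all genes). Of 8 luminal genes, 7, 6 and 7 also lay above normal, with median log2 differences of 1.25, 0.66 and 0.84 beside 0.60, 0.42 and 0.57 for the junction list, and their part was not tested. Cdh2 had a Spearman correlation of -0.59 with the summed junction genes (n = 32). By Pearson it was -0.59, and -0.54 without the 2 libraries of most extreme junction sum. Of 13 epithelial transcription and splicing factors, led by Gata3, Ehf and Elf5, edgeR called 0 across the stages, with 3 at an unadjusted p under 0.05, as were 20.9% of all genes. Of 12 other EMT factors, led by Sox4, Sox9 and Tcf4, 10 were tested and edgeR called 0 across the stages, with 2 at an unadjusted p under 0.05. Across the stages DESeq2 and limma voom also called 0 of either list. In adenoma core against border, and in its difference from carcinoma, DESeq2 called 1 of the other EMT factors, Klf8. Of all 22676 genes, DESeq2 called 1143 and 704 there, and Klf8 had 10 counts in 9 of 32 libraries. Of the mesenchymal genes, DESeq2 called Itga5, Lox and Axl in the first comparison and Itga5 and Lox in the second. Of 12 fibroblast genes, edgeR called Col1a1, Col3a1 and Postn across the stages, DESeq2 called 4 and limma voom 8, and Col3a1 was lower in metastasis than in normal gland by 4.61 on the log2 scale (SE 0.91, edgeR adjusted p = 0.0391). Of the other marker lists, edgeR called the adipocyte genes Adipoq, Cfd, Fabp4 and Retn, the leukocyte genes Ptprc and Jchain, and 6 lung genes (Sftpc, Sftpb, Sftpa1, Sftpd, Scgb1a1 and Ager) across the stages.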

How the data were processed

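Gene counts were deposited by the authors as 1 table for 32 laser-captured regions of 7 µm sections. Per the labels' protocols, libraries were made from poly-adenylated RNA by SmartSeq2 without molecular identifiers, so counting errors cover amplified reads. Reads were aligned with STAR to mm10, per the submitters' processing notes; for the counting, annotation and strand were not given in the sources used here. Of 24454 gene IDs, 24374 matched a symbol. The most abundant ID, which has no symbol, held 5.20% to 78.9% of a library's counts.

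Groups came from the sample titles. Counts were scaled by TMM and tested with edgeR 4.0.16 (R 4.3.3) by the quasi-likelihood test after filterByExpr, in 1 fit over the 5 stages (19907 genes) and 1 over stage and position (22676 genes), with Benjamini-Hochberg adjustment over all genes at 0.05. A standard error is the log2 change divided by the root of its F value. The fit was tested on simulated data. When each gene had its own dispersion there, unadjusted p-values ran small and more of the adjusted calls were false than the threshold allows. The calls of Twist1, Mmp14 and Tjp1 across the stages and of Col3a1 in metastasis against normal, all close to the threshold, carry that doubt. Alternatives were DESeq2 1.42.0, limma voom 3.58.1, other scalings and filters, and each library left out. The rule for named genes takes all 10 members, list genes called in a comparison (up to 4 by p, with 20 CPM or more) or else the 3 most abundant of a list, and for members with 10 counts in 16 libraries the 3 most similar genes among those averaging at least 20 CPM. The members and lists were chosen with earlier results of these data known, and the olfactory receptor set after values were seen. Other marker genes called across the stages, Klf8 and examples of lists with a call were named after values were seen.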

Additional observations from a re-analysis of the deposited data

Results flagged for a closer look

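On the scale of log2 of CPM plus 1, 8 of 40 groups (10 genes in 4 stages with at least 4 libraries) held a library whose gap to the next exceeded Dixon's 95% value, where chance gives about 1 in 20. Most are genes at or near 0 elsewhere in the stage, for which a single detected region is enough. Hyperplasia 44 stood apart in Zeb1 (1.10 CPM, the others at 0) and in Snai1 (4.88 CPM, the next at 0.165). Carcinoma 55 did so in Snai1 (17.9 CPM, the next at 0.648) and in Twist1 (1.85 CPM, the next at 0.0645). Metastasis 58 did so in Snai1 (19.0 CPM, the next at 0.811), and adenoma 25 in Twist1 (0.541 CPM, the others at 0). Carcinoma 53 was the highest carcinoma region in Snai2 (25.5 CPM, the next at 3.16) and the lowest in Cdh1 (49.6 CPM, the next at 115).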

How the results depend on the processing

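No paired analysis was possible because the labels tie no region to an animal. Members called between pairs of groups stayed at 0 under the alternatives run, except 1 (Zeb1) by DESeq2 in hyperplasia against normal. Across the stages the 1 call became 0 under TMMwsp scaling, DESeq2 (no adjusted p for Twist1), limma voom, without the 3 libraries of fewest genes and on thinned counts, and 0 to 1 with a library left out. Of 31 single-gene changes, 24 never reversed. Cdh1 reversed in hyperplasia against normal (0.18 under TMMwsp, 0.12 under limma voom, -0.41 to 0.11 with a library left out), in carcinoma against adenoma (0.0819 under limma voom), in carcinoma against normal (-0.34 with DESeq2 size factors and -0.34 by DESeq2, -0.0875 on thinned counts, -0.0471 to 0.40 with a library left out) and at the lung border (0.0130 without the 3 libraries, -0.28 to 0.0216 with a library left out). Left-out libraries gave Cdh1 -0.17 to 0.25 in carcinoma and -0.57 to 0.30 in adenoma for core against border, and Zeb2 -3.47 to 0.16 in adenoma against hyperplasia. The cause was not tested. DESeq2 size factors moved the median of all genes to -0.35, -0.31 and -0.25 in hyperplasia, carcinoma and metastasis against normal, and TMMwsp to 0.22, 0.28 and 0.30. Counts of genes called depended on the tool: DESeq2 called 489, 609, 265, 186, 177 and 264 in the 6 pairs of stages against 0, 0, 0, 3, 1 and 5 by edgeR, and limma voom 105, 2, 7, 19, 316 and 174. Across the stages, 712 became 338 by DESeq2, 354 by limma voom, 3717 without a filter, 126 without the 3 libraries and 479 to 1614 with a library left out. For position, edgeR called 0 and DESeq2 314, 1143, 744 and 704, limma voom 5, 35, 12 and 1. With detected genes as a covariate, carcinoma against adenoma gave 168.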
